A study of Mus musculus with 32 samples.

Results

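*Pde4a*, *Pde4b*, *Pde4d*, *Pde7a* and *Pde7b* encode cAMP-specific phosphodiesterases, and their transcripts were followed in muscle of *Mtm1* KO mice and WT littermates from birth to late disease. These 5 genes, out of 54838 in the table, were chosen from the phosphodiesterase family with results of these data already known, so every KO and age difference of the 5 is given as a description, with its standard error and no P-value. Where the text says that any of the 5 was called, it gives how the gene stood under the rule applied to all genes, set beside the share of all genes called, and not evidence for the gene. The fourth PDE4 gene, *Pde4c*, was not among them and is given for comparison. *Mtm1* encodes the phosphoinositide 3-phosphatase myotubularin, whose loss causes X-linked myotubular myopathy. The KO allele carries a germline deletion of exon 4 on a C57BL6/J background, so myotubularin is missing from every cell of the hemizygous males and not from muscle fibres alone. The study sequenced poly(A) RNA of whole tibialis anterior (labelled as skeletal muscle), in n=4 WT and n=4 *Mtm1* KO libraries at P1, P14, P21 and P35 alike, 32 in all, with no treatment in any group.

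Cyclic AMP is made by adenylyl cyclases when hormones, neuropeptides or adrenaline act on Gs-coupled receptors, and it activates protein kinase A, the EPAC exchange factors and the Popeye proteins. Phosphodiesterases are the only enzymes that break it down, and the PDE4 and PDE7 families act on cAMP and not on cGMP. In skeletal muscle the pathway is known for adrenaline-driven glycogen breakdown, for the growth effect of β2-agonists and, through the transcription factor CREB, for induction of genes such as *Ppargc1a*, *Sik1* and *Nr4a2*. PDE4 enzymes are held near their substrate by anchoring proteins, are themselves activated by protein kinase A and are the target of rolipram. The PDE7 enzymes are insensitive to rolipram, and forms of PDE7A are known from skeletal muscle and T cells.

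All values are CPM, that is counts scaled to the size of each library on 1 scale (TMM over all 32 libraries), a level that is not corrected for gene length. Library totals lay between 49321035 and 85631408 counts, and the 5 genes had 399 to 9305 counts in each library, the fewest in *Pde4a* at P1. A gene was called when edgeR's quasi-likelihood test, adjusted over all genes tested, gave an adjusted P-value under 0.01 and the fold change exceeded 1.5. The labels number the libraries but do not say how they were drawn, so errors and P-values measure the spread between these libraries. In *Mtm1* itself, the check of the genotype labels, WT libraries held 5.26, 5.34, 5.44 and 6.02 CPM at P1 and KO libraries 2.32, 2.40, 2.45 and 3.91 CPM, and from P14 on every KO library lay between 2.64 and 4.51 CPM against 18.9 to 24.9 CPM in WT. The *Mtm1* log2 fold change was -2.56 ± 0.0992 (SE) at P35 and -0.98 ± 0.172 (SE) at P1, where it did not pass the threshold unless KO replicate 4 was left out (-1.19) or DESeq2 or 1 fit of all 32 libraries was used. The tissue label held, in that the summed level of 6 muscle fibre markers (*Ckm*, *Acta1*, *Tnnt3*, *Ryr1*, *Cacna1s* and *Myh4*) was 55000 to 160000 CPM in every library from P14 on, whereas at P1 it was 14800 to 29900 CPM and 4 keratinocyte markers summed to 1470 to 5710 CPM, against at most 6.16 CPM later.

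The genes lie on 5 chromosomes of GRCm38. *Pde4a* spans chr9:21165714-21213248 (+ strand, 5 annotated transcripts), *Pde4b* chr4:102087543-102607259 (+, 13 transcripts) and *Pde4d* chr13:108449948-109953461 (+, 20 transcripts). *Pde7a* spans chr3:19223108-19311322 (− strand, 10 transcripts) and *Pde7b* chr10:20398004-20725078 (−, 8 transcripts). PDE4 genes have several transcription start sites that give long and short forms, and the table pools them into 1 value per gene. RefSeq promoter windows of GRCm38.p6, from 250 bases before to 50 bases after a start, were held for 9 starts of 4 of the 5 genes, 3 of them in *Pde4a* and 4 in *Pde4b*. Since CREB binds the cAMP response element TGACGTCA, these windows were searched on both strands for that motif and for the shorter TGACG, which it contains. None of the 9 windows held TGACGTCA, which stood in 1.79% of all 32851 windows, and 2 of 9 held TGACG, which stood in 20.8% of all windows. A match is only a run of letters, and which start is used in this muscle was not measured. The 3 windows shown are both that held TGACG, with the match in capitals (CGTCA on the strand of the gene), and the window of *Pde7b*, the gene whose values tracked those of *Pde4a* most closely among the 5.
*Pde4a*, chr9:21183851-21184150 (+), match starting 50 bases before the start: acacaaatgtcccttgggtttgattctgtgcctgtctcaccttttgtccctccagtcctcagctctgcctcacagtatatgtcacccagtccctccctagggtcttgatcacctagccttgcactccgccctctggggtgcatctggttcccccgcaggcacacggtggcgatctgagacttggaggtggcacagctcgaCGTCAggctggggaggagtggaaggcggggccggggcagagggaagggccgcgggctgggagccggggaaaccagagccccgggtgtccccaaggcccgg
*Pde4b*, chr4:102421305-102421604 (+), match starting 34 bases before the start: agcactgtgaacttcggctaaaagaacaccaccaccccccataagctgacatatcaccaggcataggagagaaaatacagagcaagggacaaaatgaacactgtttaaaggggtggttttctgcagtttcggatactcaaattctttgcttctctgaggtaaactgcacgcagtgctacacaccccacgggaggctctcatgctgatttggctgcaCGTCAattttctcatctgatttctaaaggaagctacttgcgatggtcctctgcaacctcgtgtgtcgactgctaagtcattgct
*Pde7b*, chr10:20548279-20548578 (−), no match: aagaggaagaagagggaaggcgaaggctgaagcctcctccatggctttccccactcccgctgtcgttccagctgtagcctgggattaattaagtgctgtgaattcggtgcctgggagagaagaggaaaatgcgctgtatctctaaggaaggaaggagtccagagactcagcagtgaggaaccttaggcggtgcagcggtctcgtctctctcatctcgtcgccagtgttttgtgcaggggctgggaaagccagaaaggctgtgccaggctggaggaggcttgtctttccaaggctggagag
The windows differed in base composition, with 64.0% G and C in the *Pde4a* window, 47.0% in that of *Pde4b* and 55.7% in that of *Pde7b*.

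In WT muscle 4 of the 5 genes stood higher at P14 than at P1, with the largest difference in *Pde4a*, while *Pde7a* stood lower at P14 than at P1. *Pde4a* encodes a PDE4 enzyme with long and short forms that differ in location. WT libraries held 5.82, 6.25, 6.32 and 6.68 CPM of *Pde4a* at P1 and 52.3, 53.5, 56.8 and 59.5 CPM at P14. Those of P21 held 101, 101, 108 and 109 CPM and those of P35 80.7, 102, 102 and 109 CPM. The groups of P1, P14 and P21 were apart in every library, and those of P21 and P35 overlapped. Its log2 fold change was 3.13 ± 0.0886 (SE) from P1 to P14, an 8.74-fold higher level, then 0.93 ± 0.0814 (SE) from P14 to P21 and -0.10 ± 0.0806 (SE) from P21 to P35. *Pde4d*, whose product is anchored beside the ryanodine receptor and β-adrenergic receptors in the heart, went from 20.8 to 23.4 CPM at P1 to 101 to 181 CPM at P14, a log2 fold change of 2.58 ± 0.241 (SE), and stayed between 75.2 and 188 CPM afterwards. *Pde4b*, the PDE4 gene best known from immune cells and brain, went from 23.3 to 29.3 CPM to 71.7 to 128 CPM, a change of 2.03 ± 0.168 (SE), and then stood at -0.61 ± 0.163 (SE) at P21 relative to P14. *Pde7b* went from 12.6 to 15.0 CPM to 46.9 to 56.6 CPM, a change of 1.89 ± 0.0785 (SE), and its later changes were -0.11 ± 0.0759 and 0.03 ± 0.0761 (SE). *Pde7a* took the other course, from 25.3 to 29.2 CPM at P1 to 17.4 to 24.2 CPM at P14 and 31.8 to 41.8 CPM at P35, with log2 changes of -0.44 ± 0.128, 0.17 ± 0.13 and 0.62 ± 0.13 (SE) over the 3 intervals.

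Of the 5 genes, 4 were called higher at P14 than at P1. In that comparison 54.2% of 17591 genes tested were called in either direction, 4324 higher and 5219 lower. From P14 to P21 *Pde4a* alone was called, as higher (background 7.13% in either direction, 604 genes higher). Over that interval *Pde4b* was called lower with library totals, without the filter on low counts or with DESeq2. It was also called without WT P14 replicate 4 or WT P35 replicate 2. From P21 to P35 *Pde7a* alone was called, also as higher (background 3.80% in either direction, 355 genes higher). The call of *Pde7a* from P21 to P35 was lost when library totals replaced TMM, with a log2 change of 0.56, and when any 1 of the WT libraries P21 replicate 2 or 3 or P35 replicate 1 or 4 was left out. With library totals the median log2 change of all genes from P1 to P14 was -0.84, against -0.08 with TMM, and the changes of the 5 became 2.37 for *Pde4a*, 1.81 for *Pde4d*, 1.29 for *Pde4b*, 1.13 for *Pde7b* and -1.22 for *Pde7a*, with unchanged directions. *Pde4c* rose over the same interval by 2.35 ± 0.282 (SE, adjusted P=1.41e-06 by edgeR), from at most 0.927 CPM at P1 to at least 2.62 CPM at P14, and stood at 6.62 CPM or less in all libraries. Muscle fibre markers summed to 22300 to 29800 CPM at P1 and 113000 to 150000 CPM at P14 in WT. Endothelial markers were also higher at P14 (358 to 406 CPM at P1, 601 to 727 CPM at P14). Keratinocyte markers were at 1780 to 5710 CPM at P1 and 2.91 to 3.45 CPM at P14, and adipocyte markers at 43.7 to 136 and 0.94 to 10.2 CPM. The part of fibres and of these other cells in the changes from P1 to P14 was not tested.

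**Figure D1:**
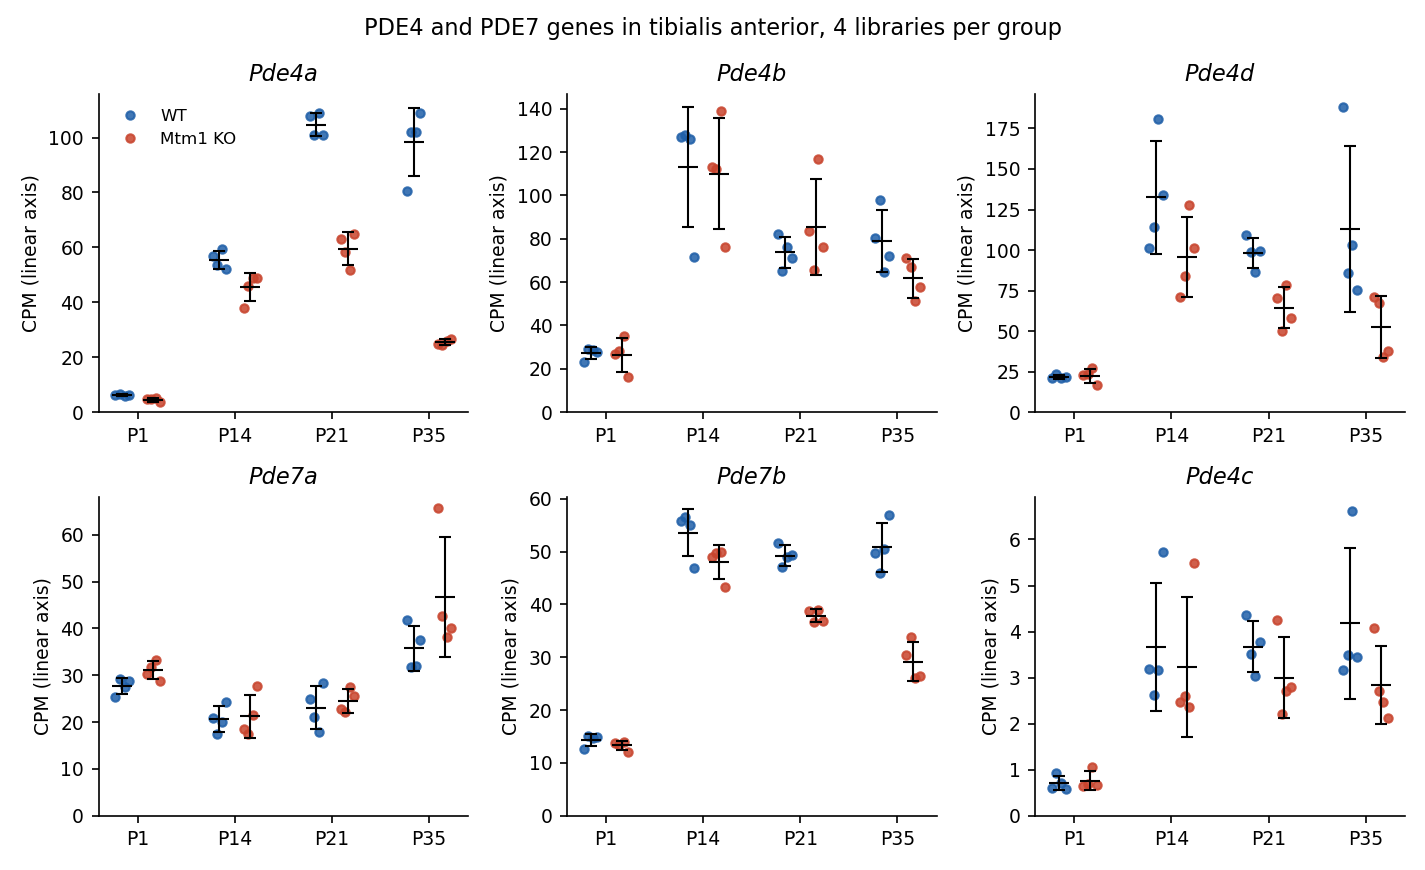
Level of each PDE4 and PDE7 gene and of *Pde4c* in the 32 libraries. Each point is 1 library (CPM, linear axis, TMM over all libraries) and the black bars give mean ± SD of the 4 libraries of a group. *Pde4a* in KO stood at 24.3 to 26.8 CPM at P35 against 80.7 to 109 CPM in WT, while *Pde7a* and *Pde4b* overlapped between genotypes at that age.

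Compared per gene length, the order of the 5 transcripts changed with age. On the scale of CPM per kb of merged exons, WT muscle at P1 held 3.57 ± 0.227 of *Pde7a*, 2.58 ± 0.258 of *Pde4b*, 1.81 ± 0.0952 of *Pde4d*, 1.15 ± 0.0899 of *Pde7b* and 0.819 ± 0.0464 of *Pde4a* (mean ± SD, n=4), and no neighbours in that order overlapped. At P35 the order of the WT levels was *Pde4a* 12.8 ± 1.59, *Pde4d* 9.40 ± 4.26, *Pde4b* 7.46 ± 1.36, *Pde7a* 4.62 ± 0.622 and *Pde7b* 4.08 ± 0.368. The gap between the PDE4 and the PDE7 genes exceeded their spread (*Pde4b* at least 6.13, *Pde7a* at most 5.39), whereas neighbours within each family overlapped. *Pde4a* was thus last of the 5 in WT at P1 and first at P21 and P35. Markers of other cells differed between P1 and the later ages, and their part in this order was not tested. In KO at P35 the order was *Pde7a* 6.02 ± 1.65, *Pde4b* 5.85 ± 0.845, *Pde4d* 4.38 ± 1.61, *Pde4a* 3.33 ± 0.146 and *Pde7b* 2.34 ± 0.299, in which only *Pde4a* and *Pde7b* were neighbours without overlap. The order rests on the length used. With the longest transcript in place of merged exons *Pde4d* stood first in WT at P35 with 26.8 ± 12.2 against 21.1 ± 2.62 for *Pde4a*, and *Pde4b* first at P1 with 6.34 ± 0.634, while *Pde4a* stayed last at P1 with 1.35 ± 0.0763.

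The 5 genes held a larger share of the phosphodiesterase transcripts in WT muscle from P14 on than at P1. The part of cells other than muscle fibres in the P1 samples was not tested. Over 16 genes whose products hydrolyse cAMP (families 1, 2, 3, 4, 7, 8, 10 and 11), the 5 made up 37.5% ± 1.45 of the summed level per kb in WT at P1 and 64.0% ± 4.17, 66.8% ± 2.02 and 69.6% ± 5.26 at the 3 later ages (mean ± SD, n=4). In KO the shares were 37.4% ± 2.22, 60.9% ± 4.47, 62.1% ± 2.83 and 60.7% ± 2.51. *Pde4a* accounted for 23.3% ± 3.10 in WT and 9.46% ± 1.77 in KO at P35, and the share of *Pde7a* was 8.36% ± 0.976 in WT and 16.6% ± 2.67 in KO, without overlap of the libraries in either gene. The summed level of all 16 genes at P35 was 55.1 ± 1.3 per kb in WT and 36 ± 5.44 in KO. A share can thus be higher in KO without a higher level. The level of *Pde7a* per kb overlapped, with 4.11 to 5.39 in WT and 4.93 to 8.47 in KO. The shares of *Pde4b* were 13.6% ± 2.75 and 16.3% ± 0.534 and those of *Pde7b* 7.40% ± 0.564 and 6.54% ± 0.474. The largest other contributor was *Pde2a*, the cGMP-stimulated phosphodiesterase, with 31.5% ± 0.389 in WT at P1, 14.9% ± 2.37 in WT at P35 and 20.0% ± 1.90 in KO at P35. The summed level of the 5 genes per kb at P35 was 38.4 ± 3.23 in WT and 21.9 ± 3.96 in KO, and every KO library stood at or below 26.9 and every WT library stood at or above 36.2.

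**Figure D2:**
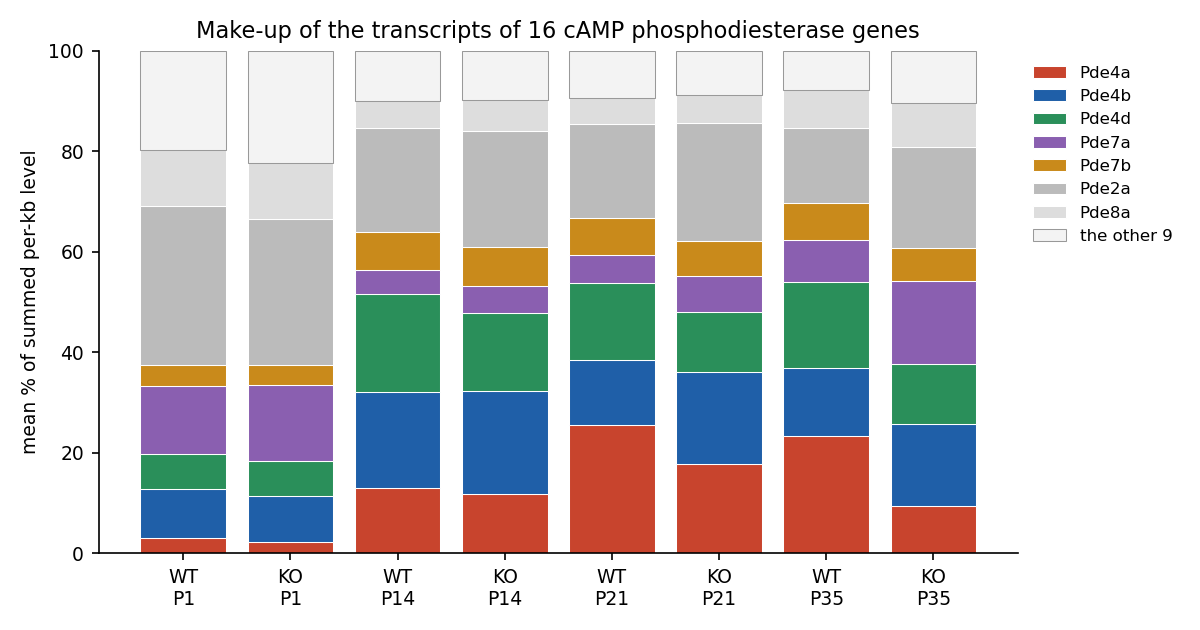
Mean share, in percent, of each gene in the summed level per kb of merged exons of 16 cAMP phosphodiesterase genes, for WT and KO at each age (n=4 libraries per bar). Colours mark the 5 PDE4 and PDE7 genes and greys the others. The 5 genes together made up 37.5% in WT at P1 and 69.6% at P35, and the *Pde4a* segment at P35 was 23.3% in WT and 9.46% in KO.

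The comparison of *Mtm1* KO with WT at each age addressed when transcript changes emerge relative to disease. Among the 5 genes the KO difference was clearest in *Pde4a*, which stood lower in KO at every age, and it grew after P14. At P1 KO libraries held 3.56, 4.76, 4.81 and 5.15 CPM of *Pde4a*, all below the lowest WT library (5.82 CPM), and the log2 fold change was -0.44 ± 0.12 (SE). At P14 the KO values were 38.1, 46.0, 48.9 and 49 CPM, again below every WT library, with a change of -0.29 ± 0.085 (SE). Between P14 libraries of the same number KO stood at 0.671 to 0.935 of WT, lower in 4 of 4 pairs. A fit with a block for library number gave -0.29 ± 0.0662 (SE). The labels name no pairs, so this pairing was read from these same data. How many of all genes stood lower in every pair was not computed. P21 brought 51.9, 58.4, 63.1 and 65.0 CPM in KO against 101 to 109 CPM in WT, a change of -0.80 ± 0.0761 (SE), 1.74-fold lower. At P35 the KO libraries held 24.3, 25.0, 26.0 and 26.8 CPM, a change of -1.92 ± 0.0971 (SE), 3.78-fold lower, so the level in KO at P35 lay below that of KO at P14. The KO effect on *Pde4a* differed between P35 and P21 by -1.13 ± 0.137 (SE) and between P21 and P14 by -0.53 ± 0.137 (SE). Lower RNA from fewer fibres and lower RNA per fibre cannot be told apart in these bulk samples. The 6 fibre markers summed to 84200 to 138000 CPM in WT and 55000 to 81200 CPM in KO at P35, 4 of the 6 lower in every KO library. Per 1000 CPM of those markers *Pde4a* stood at 0.584 to 1.21 CPM in WT and 0.320 to 0.441 CPM in KO at P35, and at 0.675 to 1.05 and 0.504 to 0.583 CPM at P21, without overlap. On that scale the genotypes overlapped at P14 (0.348 to 0.473 CPM in WT, 0.373 to 0.444 CPM in KO) and at P1 (0.224 to 0.280 and 0.172 to 0.240 CPM). The share of all genes without overlap on that scale was not computed.

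*Pde7b* followed the same course with smaller differences. WT and KO overlapped at P1 (12.6 to 15.0 against 12.1 to 14.0 CPM) and at P14 (46.9 to 56.6 against 43.2 to 49.9 CPM), with log2 fold changes of -0.09 ± 0.0758 and -0.16 ± 0.0774 (SE). Between P14 libraries of the same number, however, KO stood at 0.878 to 0.921 of WT, lower in 4 of 4 pairs. With the block for library number the P14 change was -0.16 ± 0.0388 (SE). Here too the share of all genes lower in every pair was not computed. KO libraries at P21 held 36.7, 36.9, 38.8 and 39.0 CPM against 47.0, 49, 49.3 and 51.7 CPM in WT, a change of -0.37 ± 0.0541 (SE) without overlap. By P35 they held 26.0, 26.4, 30.4 and 33.9 CPM against 45.9, 49.8, 50.5 and 56.9 CPM, a change of -0.77 ± 0.106 (SE), 1.71-fold lower. Per 1000 CPM of the fibre markers, however, the *Pde7b* values at P35 were 0.360 to 0.600 CPM in WT and 0.324 to 0.616 CPM in KO and overlapped throughout. The call of *Pde7b* at P35 was lost with library totals, where the change was -0.37.

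*Pde4d* varied more between libraries than the other 4 genes at P35 (SD of 51.2 CPM around a mean of 113 CPM in WT). At P14 WT libraries 1 to 4 held 101, 114, 181 and 134 CPM and KO libraries 70.8, 83.7, 128 and 101 CPM, so that the libraries numbered 3 were the highest and those numbered 1 the lowest in both genotypes, and the log2 fold change was -0.47 ± 0.217 (SE). Within each number the KO level was 0.701 to 0.754 of the WT level, lower in 4 of 4 pairs. With the replicate block the change was -0.47 ± 0.04 (SE), a fold below 1.5. The pairing was read from these same data, and the share of all genes lower in every pair was not computed. At P21 the groups were apart, with 86.2, 98.5, 99.4 and 109 CPM in the WT and 50.1, 58.1, 70.7 and 78.3 CPM in the KO libraries, a change of -0.60 ± 0.13 (SE). WT libraries at P35 held 75.2, 85.7, 103 and 188 CPM and KO libraries 34.1, 37.8, 67.3 and 71.2 CPM, a change of -1.08 ± 0.334 (SE) without overlap. The highest WT library carried part of that difference, which was -0.72 when WT replicate 1 at P35 was left out. Per 1000 CPM of the fibre markers *Pde4d* overlapped between genotypes at each age, with 0.688 to 1.36 CPM in WT and 0.462 to 1.22 CPM in KO at P35 and 0.665 to 0.828 against 0.462 to 0.760 CPM at P21. *Pde4d* was not called at any age in the fit used here. It was called at P21 without a filter on low counts, with DESeq2 or without KO replicate 3, and at P35 with the replicate block or with all 32 libraries in 1 fit.

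For *Pde4b* and *Pde7a* the CPM of WT and KO libraries overlapped at each age. *Pde4b* had log2 fold changes of -0.02 ± 0.197, -0.04 ± 0.221, 0.23 ± 0.16 and -0.32 ± 0.143 (SE) from P1 to P35. At P14 the libraries numbered 4 were low in both genotypes, with 71.7 CPM in WT and 76.4 CPM in KO against 112 to 139 CPM in all others. Between P14 libraries of the same number KO was lower in 2 of 4 pairs for *Pde4b* and in 1 of 4 for *Pde7a*. At P35 *Pde4b* was at 64.7, 72.2, 80.2 and 98.1 CPM in the WT and 51.4, 57.8, 66.9 and 71.2 CPM in the KO libraries, and with library totals the change became 0.08. *Pde7a* was the only gene of the 5 whose value was higher in KO at all 4 ages. The log2 fold changes were 0.18 ± 0.0667, 0.04 ± 0.153, 0.10 ± 0.137 and 0.41 ± 0.176 (SE). With 1 library left out the sign was not stable at P14 (-0.11 to 0.13) or at P21 (-0.02 to 0.21). At P35 WT libraries held 31.8, 31.9, 37.5 and 41.8 CPM and KO libraries 38.2, 40.0, 42.7 and 65.6 CPM, and without the highest, KO replicate 1, the change was 0.19. With library totals it was 0.81 and was called. Per 1000 CPM of the fibre markers *Pde7a* did not overlap at P35, with 0.295 to 0.379 CPM in WT and 0.492 to 0.841 CPM in KO, or at P21, with 0.155 to 0.190 and 0.204 to 0.267 CPM, whereas it overlapped at P1 and P14 and *Pde4b* overlapped at each age. The marker sum was itself lower in every KO library at P35 (84200 to 138000 CPM in WT, 55000 to 81200 CPM in KO). Dividing by it raises any gene in KO, and how many of all genes separate on that scale was not computed. *Pde4c* stood at 3.16 to 6.62 CPM in WT and 2.12 to 4.07 CPM in KO at P35, lower by a log2 value of -0.53 ± 0.285 (SE, adjusted P=0.16 by edgeR), and was not called at any age.

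Ratios of 2 genes within a library do not depend on scaling. The ratio of *Pde7b* to *Pde7a* counts was 1.19, 1.44, 1.52 and 1.58 in WT and 0.463, 0.659, 0.682 and 0.794 in KO at P35, and 0.498 to 0.535 against 0.419 to 0.453 at P1, without overlap at either age. At P21 it was 1.74 to 2.75 in WT and 1.42 to 1.71 in KO, again apart, whereas at P14 it was 1.94 to 3.24 in WT and 1.56 to 2.84 in KO. The ratio of *Pde4a* to *Pde4b* counts was 1.01 to 1.57 in WT and 0.351 to 0.506 in KO at P35 and 1.32 to 1.54 against 0.444 to 0.890 at P21. It overlapped at P1 (0.203 to 0.269 against 0.146 to 0.218) and P14 (0.419 to 0.729 against 0.338 to 0.640). The ratio of *Pde4a* to *Pde4d* counts overlapped from P14 on, with 0.430 to 1.45 in WT and 0.351 to 0.763 in KO at P35 and 0.992 to 1.26 against 0.663 to 1.17 at P21, but not at P1 (0.276 to 0.30 against 0.190 to 0.212). These ratios show unequal change of the paired genes, and not which gene of a pair changed. The share of all pairs of genes whose ratios separate between genotypes was not computed. At P14, where libraries of the same number deviated together, the ratios were not compared between libraries of the same number.

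**Figure D3:**
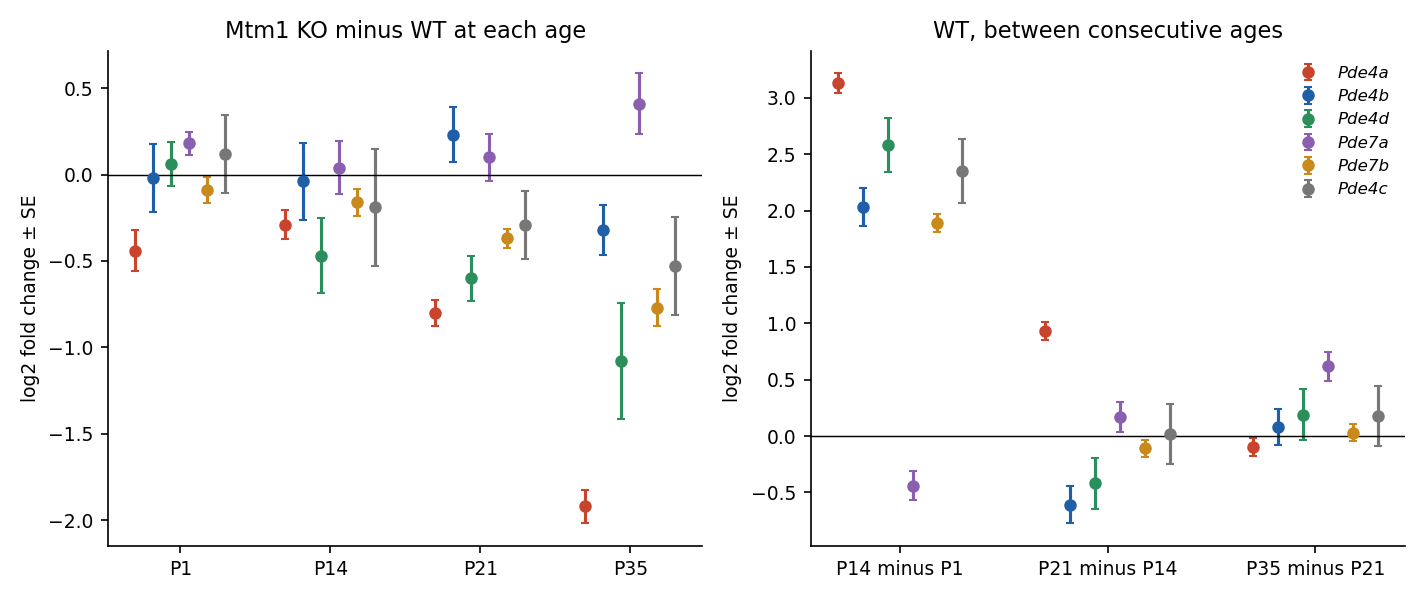
Log2 fold changes (points) with standard errors (bars) of the 5 PDE4 and PDE7 genes and *Pde4c*, for KO minus WT at each age (left) and for WT between consecutive ages (right). *Pde4a* stood at -0.44 at P1 and -1.92 at P35 in the left panel and had the highest rise, 3.13, from P1 to P14 in the right panel, while *Pde7a* stood at 0.41 in KO at P35.

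None of the 5 genes was called in KO at P1 or P14, where 0.0442% of 18100 and 0.0318% of 15728 genes were called. At P21 *Pde4a* was called lower, with 4.67% of 15179 genes called in either direction, 227 of them lower. *Pde4a* and *Pde7b* were called lower at P35, with 16% of 15595 genes called in either direction, 1172 of them lower. The libraries of the 2 genotypes did not overlap for 1 of the 5 genes at P1 (8.62% of all genes tested), 1 at P14 (4.84%), 3 at P21 (24.7%) and likewise 3 (39.6%) at P35. The change of the KO effect from P14 to P21 was called for none of the 5, with 0.425% of 18583 genes called, and that from P21 to P35 for *Pde4a*, with 0.463% called. At P14, where libraries of the same number deviated together, a fit with the replicate block called 98 genes in place of 5, and still none of these 5. The median log2 fold change over all genes was 0.01 at P21 and 0.04 at P35. With library totals the median over all genes was 0.20 at P21 and 0.44 at P35, and *Pde4a* was still lower in KO, at -0.62 and -1.52. Markers of other cells also differed. At P21 macrophage and leukocyte markers summed to 24.3 to 28.7 CPM in WT and 36.6 to 47.5 CPM in KO, 5 of 6 higher in every KO library, endothelial markers to 514 to 782 and 399 to 485 CPM, 2 of 4 lower in every KO library, and satellite cell markers to 9.20 to 11.5 and 4.60 to 6.48 CPM, each lower in every KO library. At P35 the 3 adipocyte markers summed to 1.87 to 7.93 CPM in WT and 11.7 to 45.8 CPM in KO, each higher in every KO library, and the pair of satellite cell markers (*Pax7* and *Myf5*) to 6.38 to 8.74 and 2.73 to 3.51 CPM, each lower in every KO library. The 4 endothelial markers summed to 293 to 552 CPM in WT and 255 to 322 CPM in KO, 2 of them lower in every KO library. For fibroblast, smooth muscle, Schwann and T cell markers the sums overlapped between genotypes at P35. The part of these cells in the KO differences was not tested.

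None of the other phosphodiesterase genes was called between genotypes. Of 19 genes for other cyclic nucleotide phosphodiesterases, *Pde4c* included, 13 were tested at P1, P14 and P21 and 15 at P35, and edgeR called 0 at each age. At an unadjusted P-value under 0.05 the numbers were 2, 1, 3 and 1, and DESeq2 called 0 at each age. Their log2 fold changes at P35 lay between -0.53 and 0.40. The cGMP-stimulated *Pde2a* was at -0.18 ± 0.112 (SE, adjusted P=0.226 by edgeR) and *Pde8a*, a high-affinity cAMP phosphodiesterase, at -0.36 ± 0.208 (SE, adjusted P=0.186).

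The other steps of the cAMP pathway were read from a list of 92 genes, the 5 phosphodiesterases left out. The list, the other phosphodiesterase genes included, was also drawn up with earlier results of these data known. Its calls, shares and P-values therefore describe these libraries and are not independent evidence about the pathway. Of those tested, edgeR called 1 of 85 at P1, 0 of 82 at P14, 5 of 80 at P21 (3 higher, 2 lower) and 17 of 84 at P35 (10 higher, 7 lower). The share called at P35 was 20.2% beside 16% of all genes, and the median log2 fold change was -0.14 beside 0.04. The roles below were not tested as sets. With library totals the split at P35 became 22 higher and 4 lower, and at P21 5 higher and 1 lower. At P14 8 of the 82 had an unadjusted P-value under 0.05, and DESeq2 called 0.

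Among Gs-coupled receptors and G proteins 2 of 20 tested genes were called at P35, both lower, beside 16% of all genes. *Vipr1*, the receptor for vasoactive intestinal peptide, was at 6.51, 8.42, 10.7 and 11.2 CPM in the WT and 1.76, 1.85, 2.08 and 3.41 CPM in the KO libraries, which gave -2.0 ± 0.251 (SE, adjusted P=3.78e-04 by edgeR), and was already called at P21 with -1.14 ± 0.191 (SE, adjusted P=0.00386). The *Vipr1* call at P21 was lost without any 1 of WT replicates 1 and 2 and KO replicates 3 and 4 (adjusted P 0.0116 to 0.0143 by edgeR) and in the fit of all 32 libraries (adjusted P=0.209). *Crhr2*, the receptor for urocortins, fell by 0.80 on the log2 scale (SE 0.14, adjusted P=0.00188 by edgeR), with a WT level of 52.9 ± 5.38 CPM and a KO level of 29.9 ± 5.71 CPM (SD, n=4). Of 8 adenylyl cyclases tested only *Adcy9*, a widely expressed forskolin-insensitive cyclase, was called, with 39.2 ± 5.90 CPM in WT and 16.4 ± 3.14 CPM in KO at P35 (SD, n=4), a change of -1.23 ± 0.156 (SE, adjusted P=3.82e-04 by edgeR).

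Of the protein kinase A subunits and inhibitors 3 of 8 were called at P35, beside 16% of all genes. The inhibitor gene *Pkig* had 51.7 ± 3.76 CPM in WT and rose to 98.9 ± 21.2 CPM (SD, n=4), a log2 change of 0.96 ± 0.14 (SE, adjusted P=7.58e-04 by edgeR), after 0.98 ± 0.0797 (SE, adjusted P=1.62e-04) at P21. The inhibitor gene *Pkia* fell by 0.63 (SE 0.106, adjusted P=0.00154 by edgeR), and *Prkar1a*, which encodes a regulatory subunit, rose by 0.79 (SE 0.161, adjusted P=0.00406). The call of *Pkia* was lost without WT replicate 1 (-0.58), and that of *Prkar1a* without WT replicate 1 or KO replicate 3 or 4 (adjusted P 0.0108 to 0.0165 by edgeR). Among other cAMP-binding effectors *Popdc3*, a Popeye protein of striated muscle, held 27.7, 31.1, 33.0 and 35.3 CPM in the WT and 58.3, 68.6, 69.6 and 74.4 CPM in the KO libraries at P35, a change of 1.12 ± 0.0992 (SE, adjusted P=1.05e-04 by edgeR), and was also called at P21 with 0.95 ± 0.0789 (SE, adjusted P=1.62e-04). *Rapgef4*, which encodes EPAC2, rose by 1.51 (SE 0.203, adjusted P=4.97e-04 by edgeR) with 2.93 ± 0.43 CPM in the WT and 8.21 ± 2.13 CPM in the KO libraries (SD, n=4).

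Among 14 anchoring and scaffold genes 4 were called at P35, 2 in each direction, beside 16% of all genes. *Pde4dip*, which encodes myomegalin, a PDE4D-binding protein of the Golgi and centrosome, was abundant with 3570 ± 718 CPM in WT and fell to 1600 ± 341 CPM in KO (SD, n=4), a change of -1.13 ± 0.19 (SE, adjusted P=0.00149 by edgeR). *Akap6*, the anchoring protein that binds PDE4D at the nuclear envelope, rose by 0.72 (SE 0.0931, adjusted P=4.39e-04 by edgeR) and had risen by 0.73 (SE 0.116, adjusted P=0.00307) at P21. *Akap2* fell by 0.65 (SE 0.0982, adjusted P=8.83e-04 by edgeR) and *Akap11* rose by 0.60 (SE 0.0978, adjusted P=0.0013), a call lost without any 1 of WT replicates 2 and 4 and KO replicates 3 and 4, where the change was 0.53 to 0.57, and in the fit of all 32 libraries (0.58). At P21 the call of *Akap6* was lost without WT replicate 1 or KO replicate 2 (adjusted P=0.0122 and 0.0109 by edgeR). With library totals the calls of *Crhr2*, *Pkia* and *Akap2* at P35 were lost, with log2 fold changes of -0.39, -0.22 and -0.25.

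Among 14 CREB factors and cAMP-induced genes 5 were called at P35, 4 higher and 1 lower, beside 16% of all genes. *Fos*, an immediate early gene also induced by many other signals, was at 4.65, 4.70, 5.63 and 10.7 CPM in the WT and 22.2, 52.6, 58.4 and 60.8 CPM in the KO libraries, higher by 2.94 ± 0.371 (SE, adjusted P=3.78e-04 by edgeR). *Sik1*, a salt-inducible kinase gene, was at 14.7, 15.9, 19.2 and 34.4 CPM in the WT and 59.8, 71.3, 82.6 and 103 CPM in the KO libraries, a change of 1.93 ± 0.278 (SE, adjusted P=6.92e-04 by edgeR). *Rgs2*, a regulator of G protein signalling, rose by 1.03 (SE 0.18, adjusted P=0.00191 by edgeR). *Ppargc1a*, the coactivator of mitochondrial biogenesis, went the other way, with 52.0, 53.8, 58.0 and 66.6 CPM in the WT and 22.6, 25.5, 26.6 and 27.4 CPM in the KO libraries, a change of -1.15 ± 0.0978 (SE, adjusted P=8.51e-05 by edgeR), and was already lower at P21 by -0.73 ± 0.0843 (SE, adjusted P=8.15e-04), a call lost with library totals (-0.54). *Nr4a2*, an orphan nuclear receptor gene named here after its values were seen, rose by 1.68 at P35 (SE 0.299, adjusted P=0.00198 by edgeR). The clock gene *Per1* was the sole gene of the list called at P1, with 32.1 ± 1.97 CPM in WT and 74.6 ± 10.6 CPM in KO (SD, n=4), a change of 1.23 ± 0.105 (SE, adjusted P=0.00394 by edgeR), and the call was lost without any 1 of the WT libraries or KO replicate 3 (adjusted P 0.0128 to 0.0295 by edgeR), with the replicate block (1.22, adjusted P=0.0699) and in the fit of all 32 libraries (1.22, adjusted P=0.199). Macrophage and leukocyte markers also differed at P35, with 6 genes summing to 22 to 29.0 CPM in WT and 32.4 to 51.0 CPM in KO. Of these markers 4 were higher in every KO library, and their part in the differences at P35 was not tested.

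**Figure D4:**
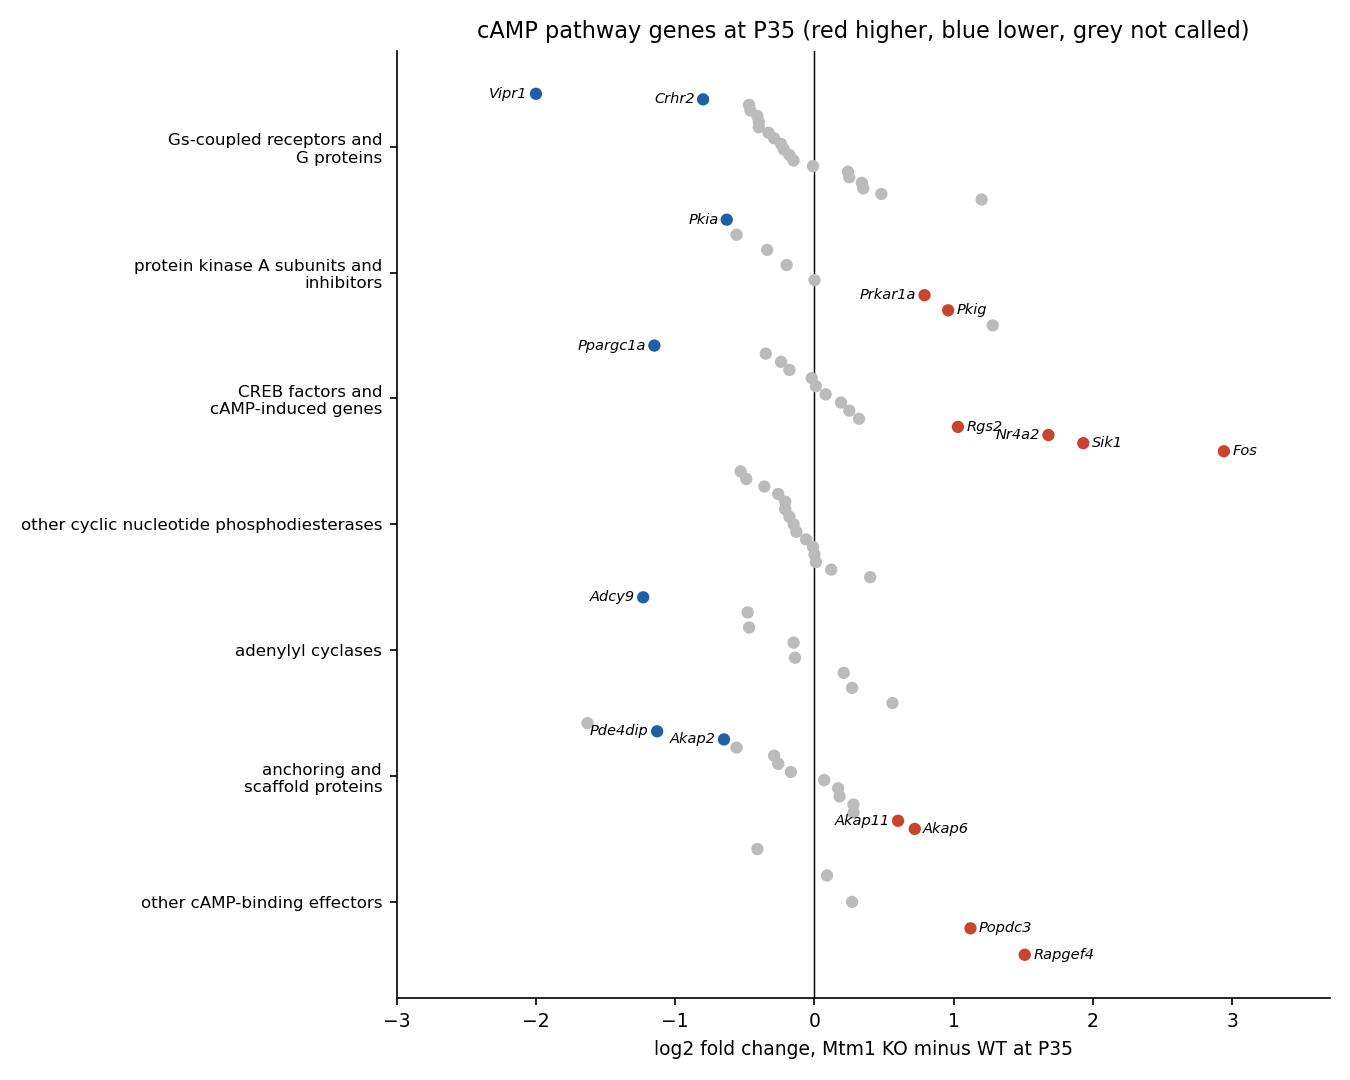
Log2 fold change of KO minus WT at P35 for each tested gene of the cAMP pathway list, grouped by role (1 point per gene, vertical position within a role has no meaning). Red marks 10 genes called higher and blue 7 called lower, and grey points were not called. *Fos* stood at 2.94 and *Vipr1* at -2.0, and no other phosphodiesterase gene was called.

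Across the 32 libraries the genes whose log2 CPM was most like that of *Pde4a* were *Opa1*, *Aars2* and *Slc25a12*, with Pearson r of 0.996, 0.991 and 0.991. For *Pde4b* they were *Nr3c1*, *Sspn* and *Rhbdd1* (0.947, 0.946 and 0.941), for *Pde4d* *3222401L13Rik*, *Abcc9* and *Satb1* (0.958, 0.950 and 0.949), for *Pde7b* *Ythdf3*, *Abcc9* and *Otud4* (0.982, 0.982 and 0.980), and for *Pde7a* *Cpeb2*, *Tmem159* and *Pip4p1* (0.871, 0.859 and 0.854). These were the highest of 13520 genes with a mean of at least 1 CPM, and since all libraries share the steps between ages, r largely reads the age course. By Pearson r *Pde4a* and *Pde7b* were the most alike of the 5, with 0.956, and 0.903 after the mean of each age was subtracted. By Spearman rho *Pde4d* and *Pde7b* were the most alike (0.873), and *Pde4a* and *Pde7b* stood at 0.797. *Pde7a* had a Pearson r of -0.330 to -0.239 with the other 4 genes, and after the age means were subtracted it stood at 0.058 with *Pde4d*, -0.089 with *Pde4b*, -0.367 with *Pde7b* and -0.438 with *Pde4a*.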

How the data were processed

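RNA of tibialis anterior was sequenced from WT and *Mtm1* KO mice at 4 ages, with 4 libraries per group. The authors deposited a table of RSEM expected counts per gene and library, not scaled between libraries and not pooled, and the submitters' processing notes name STAR 2.6.1, RSEM 1.2.22, DESeq2 and GRCm38. The library kit was directional, the methods name HTSeq as the counter, and the use of strand in counting is not given in the sources used here. The table held 54838 genes, of which 54723 were given a symbol from GENCODE M21, and 0 columns of values were not used. *Pde7a* shares 48 exonic bases with an antisense gene that had at most 1 count in any library.

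After rounding to whole numbers, the expected counts were fitted with edgeR 4.0.16 in R 4.3.3 (filterByExpr, TMM, glmQLFit, glmQLFTest, two-sided, Benjamini-Hochberg over all genes tested). KO was compared with WT in a fit per age, WT ages in a fit of the 16 WT libraries, and KO effects between ages in a fit of all 32 libraries. A call needed an adjusted P-value under 0.01 and a fold change over 1.5, and for differences of effects the adjusted P-value alone. Levels per kb divide CPM by the merged exon length. Alternatives were RLE scaling, library totals, no filter on low counts, DESeq2 1.42.0, a replicate block, another set of libraries in the fit, each library left out, the longest transcript as length and other measures of likeness. Replicate numbers come from the sample titles. At P14 the deviations from the group means correlated between the WT and the KO library of every number (r 0.19 to 0.59). The labels do not say what the numbers stand for, so a pairing at P14 is read from these data alone. No such agreement was seen at P1 (mean r -0.14), P21 (0.07) or P35 (0.05). No pair of replicates agreed within sampling noise. Depth was 49321035 to 85631408 counts per library, so 4 libraries per group, more than counting error, limit the precision. The fitting code was tested on simulated data.

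The 5 genes and the gene lists were chosen with earlier results of these data known. Genes were named by a rule, namely the 5 genes, *Mtm1*, *Pde4c*, up to 4 genes per role called at P21 or P35 (smallest adjusted P-value at P35), any list gene called at P1 or P14, and the 3 genes most like each of the 5 by Pearson r (log2 CPM, prior count 2, mean of at least 1 CPM). *Pde2a*, *Pde8a* and *Nr4a2* were named outside this rule. Promoter sequences are those of RefSeq on GRCm38.p6. Lists of cell type markers served to check the tissue.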

Additional observations from a re-analysis of the deposited data

Results flagged for a closer look

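Of 48 groups of 4 libraries (6 PDE4 and PDE7 genes, *Pde4c* included, at 4 ages in 2 genotypes), 8 held a library far from the other 3 by Dixon's criterion, which flags about 1 in 20 groups by chance. For *Pde4b* in WT at P14 the outlying library held 71.7 CPM, against 126 to 128 CPM in the others. *Pde7a* in KO at P35 had 1 library at 65.6 CPM, against 38.2 to 42.7 CPM. *Pde7b* had 1 low library in WT at P1 (12.6 CPM), in WT at P14 (46.9 CPM) and in KO at P14 (43.2 CPM). *Pde4c* had 1 high library in KO at P1 (1.06 CPM), in KO at P14 (5.49 CPM) and in WT at P35 (6.62 CPM). At P14 the outlying libraries of *Pde4b*, *Pde7b* and *Pde4c* were all numbered 4.

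In the cAMP pathway list, the KO effect on *Nr4a2* differed between P35 and P21 by 2.10 ± 0.409 (SE, adjusted P=0.00616 by edgeR), from a log2 fold change of -0.42 at P21 to 1.68 at P35, where the value was higher in all 4 KO libraries. The difference was no longer called with only the 16 libraries of these 2 ages (2.11, adjusted P=0.0481), or when any 1 of 10 libraries of P21 or P35 was left out (1.68 to 2.14).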

How the results depend on the processing

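Of 45 log2 fold changes of the 5 genes, 13 moved by more than the within-group SD under another setting, in each case library totals, and none of the called values changed sign. With library totals the KO changes were -0.62 for *Pde4a* and -0.18 for *Pde7b* at P21, and -1.52 for *Pde4a*, 0.08 for *Pde4b*, 0.81 for *Pde7a* and -0.37 for *Pde7b* at P35. The WT changes from P1 to P14 were 2.37, 1.29, 1.81, -1.22 and 1.13 for *Pde4a*, *Pde4b*, *Pde4d*, *Pde7a* and *Pde7b*, and from P14 to P21 0.75 for *Pde4a* and -0.30 for *Pde7b*. Of the 5, 2 were called in KO at P21 without the filter or with DESeq2 (1 to 2 with 1 library left out), 2 in WT from P14 to P21 with library totals, without the filter or with DESeq2 (1 to 2 with 1 library left out), and 0 from P21 to P35 with library totals (0 to 1 with 1 library left out).

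Of the cAMP pathway list, 0 genes were called at P1 with the replicate block or with all 32 libraries in 1 fit and 2 with DESeq2 (0 to 1 with 1 library left out), 10 at P21 with DESeq2, 26 at P35 with library totals, and 3 in WT from P21 to P35 with library totals (1 to 6 with 1 library left out, and 5 to 11 from P14 to P21). The KO effect differed between P21 and P14 for 4 list genes with the 16 libraries of those ages (0 to 1 with 1 library left out), and between P35 and P21 for 2 with the replicate block and 0 with 16 libraries (0 to 1).

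Over all genes, KO calls at P1 numbered 14 without the filter, 2 with the replicate block or all 32 libraries, 93 with DESeq2 and 0 to 15 with 1 library left out. Those at P14 numbered 10 without the filter, 98 with the block, 53 with DESeq2 and 1 to 4 with 1 library left out. Those at P21 numbered 1157 with library totals and 417 to 626 with 1 library left out, and those at P35 4676 with library totals. Library totals raised the share of calls that were higher in KO from 68.0% to 90.9% at P21 and from 53.0% to 93.0% at P35, and lowered that of WT calls higher at P14 than at P1 from 45.3% to 14.1%, and at P21 than at P14 from 48.1% to 21.6%. WT calls from P21 to P35 numbered 1050 with DESeq2 and 433 to 851 with 1 library left out. Differences of the KO effect numbered 30 to 100 (P21 and P14) and 37 to 138 (P35 and P21) with 1 library left out, and 9 for the latter with 16 libraries. The replicate block changed no other count of calls by over 1.5 times. At P1, P14, P21 and P35, 0, 3, 1 and 2 of 4 WT libraries correlated best with the KO library of their own number. The block ended the calls of *Akap6* at P21 (0.73, adjusted P=0.0106 by edgeR) and *Prkar1a* at P35 (0.79, adjusted P=0.0107). *Sik1* at P21 was called with the block (1.16), library totals (1.29), no filter (1.08), DESeq2 (1.07) or all 32 libraries in 1 fit (1.08). The cause of these changes was not tested.

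With the longest transcript as length the 5 genes made up 47.1%, 75.0%, 75.7% and 78.2% of the cAMP phosphodiesterase level in WT and 46.6%, 72.1%, 71.8% and 70.2% in KO from P1 to P35. Of the 3 genes most like a given gene by Pearson r, those also found after subtracting age means numbered 1 for *Pde4a* and 0 for the other 4 genes, and those also found by Spearman rho 1 for *Pde4b* and 0 for *Pde4a*, *Pde4d* and *Pde7b*. The 4 libraries per group limit how small a difference can be called, and with 1 value per gene the start sites and forms of the PDE4 genes are not resolved.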
